A study of Mus musculus with 12 samples.

Results

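The Hox genes encode homeodomain transcription factors that lie in 4 clusters, Hoxa on chromosome 6, Hoxb on chromosome 11, Hoxc on chromosome 15 and Hoxd on chromosome 2 (GRCm38). Their transcripts were followed along the upper epididymis, the coiled duct in which sperm leaving the testis mature, and after its inflow from the testis had been cut off. Members were taken by symbol: every gene of GENCODE mouse release M21 named Hoxa, Hoxb, Hoxc or Hoxd plus a number, with antisense and other derived names left out. This gave 39 of the 55536 genes in the count tables, 11 in Hoxa, 10 in Hoxb, 9 in Hoxc and 9 in Hoxd. The rule itself uses no measured value, but it was chosen with earlier results of these data known.

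The tissue came from wild-type mice. The ligated group had the efferent ducts, the tubes that carry sperm and fluid from the testis, tied off with a suture just before the epididymal head; the control group was not ligated. Segments 1, 2 and 3, counted from the end nearest the testis, were taken from both, which gives 6 groups (C1, C2 and C3 for control, L1, L2 and L3 for ligated) with 2 libraries each. Every library pooled 2 mice; 500 ng of its RNA went through poly(A) selection and a directional kit. Sequencing batches 3017 and 3097 each held 1 library of every group. The sources used here do not give strain, age, time after ligation or whether pools or segments shared mice, so p-values measure the spread between these pools.

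As background, Hox genes are laid out in their clusters in the order in which they are used along the body axis, from paralogue group 1 at the head end to group 13 at the tail end, and genes of one paralogue group in different clusters are close relatives. The proteins bind DNA together with TALE homeodomain partners of the Pbx, Meis and Pknox families. The epididymis forms from the Wolffian duct, and in mice lacking Hoxa10 or Hoxa11 parts of the male duct take on features of neighbouring regions.

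The DNA just upstream of the RefSeq start of 4 members is shown, as examples of both directions in the pattern described below. Hoxb1 had the largest fall after ligation, and Hoxb8 lies in a run of neighbouring genes that fell. Hoxb4 and Hoxd4, paralogues of each other, rose, though other members rose more. Each sequence is the plus strand from RefSeq on GRCm38.p6, runs 5′ to 3′ and holds no annotated exon. The Hoxd4 sequence lies inside that gene as GENCODE annotates it, from 74711929 on, so an annotated Hoxd4 exon lies further upstream. The windows are chr11:96365508-96365751, chr11:96281655-96281904, chr11:96318017-96318266 and chr2:74721728-74721977 in that order, and capitals mark a motif match.
Hoxb1: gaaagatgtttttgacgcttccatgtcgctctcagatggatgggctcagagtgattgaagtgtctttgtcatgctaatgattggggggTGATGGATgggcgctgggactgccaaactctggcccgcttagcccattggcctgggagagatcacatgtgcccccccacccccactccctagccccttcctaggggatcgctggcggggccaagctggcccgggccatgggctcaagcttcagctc
Hoxb8: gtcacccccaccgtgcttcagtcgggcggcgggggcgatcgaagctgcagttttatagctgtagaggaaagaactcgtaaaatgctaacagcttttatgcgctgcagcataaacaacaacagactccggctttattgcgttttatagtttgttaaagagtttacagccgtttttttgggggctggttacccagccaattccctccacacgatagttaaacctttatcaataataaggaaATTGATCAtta
Hoxb4: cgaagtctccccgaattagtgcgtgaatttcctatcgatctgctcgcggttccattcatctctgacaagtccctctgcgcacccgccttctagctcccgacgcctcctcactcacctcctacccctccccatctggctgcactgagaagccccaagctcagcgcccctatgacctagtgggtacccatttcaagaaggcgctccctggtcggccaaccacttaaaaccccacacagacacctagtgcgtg
Hoxd4: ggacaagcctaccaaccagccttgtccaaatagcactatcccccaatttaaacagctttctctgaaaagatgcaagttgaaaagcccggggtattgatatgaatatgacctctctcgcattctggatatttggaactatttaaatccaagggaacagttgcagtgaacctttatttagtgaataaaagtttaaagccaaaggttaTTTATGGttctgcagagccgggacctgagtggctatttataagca

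Windows of up to 250 bases upstream of the RefSeq start were searched on both strands for 4 short motifs, and 24 windows belonged to Hox genes. The Hox-Pbx motif TGATNNAT was in 4 of the 24, against 7.7% of 32817 windows of all genes. The Meis motif TGACAG was in 2 (15.9% of all windows), the motif TTTATGG of posterior Hox and Cdx proteins in 1 (2.4%), and the ETS motif CGGAAG in 2 (13.6%). In Hoxb1 the Hox-Pbx match began 162 bases before the start, and in Hoxb8 it lay on the minus strand 11 bases before it. Hoxd4 had TTTATGG 45 bases before its start, and Hoxb4 had no match to any of the 4. These are letter matches in a short window and no measure of binding.

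Libraries held 30485275 to 42313728 counts, of which Hox genes took 0.149% and 0.171% in control segment 1 and 0.106% to 0.134% in the other 10 libraries. Levels are CPM, counts scaled to library size after TMM normalization, and each pair of values below is the library of batch 3017 and then that of batch 3097. The 6 sperm and germ cell transcripts checked summed to 8.49 to 175 CPM in control libraries and to 0.196 to 0.583 CPM in ligated ones, in the direction the ligation labels give. General epithelial markers summed to 1820 to 2390 CPM, but 1 of the 5, Krt19, had 58.9 and 77.3 CPM in control segment 1 and 336 to 639 CPM in the other 10 libraries, and was higher after ligation in segment 1 (2.93 ± 0.18, adjusted p = 9.6e-06). Control segment 1 stood apart in several other marker sums. Smooth muscle markers summed to 3140 and 3190 CPM there, to 845 and 523 in control segment 2, and to 409 to 618 in the other 8 libraries; 5 of the 6 were higher after ligation in segment 1, and the sum followed Actg2, which had 2870 and 2860 CPM in control segment 1, 400 and 64.2 in control segment 2 and 11.5 and 11.5 in ligated segment 1. Fibroblast markers summed to 621 and 630 CPM in control segment 1 against 132 to 339 elsewhere, with 5 of 6 higher and Pdgfra lower after ligation, and the 5 endothelial markers, all lower after ligation, to 80.8 and 79.0 against 9.99 to 31.9. Clear and narrow cell markers went the other way, with 281 and 366 CPM against 677 to 1150. Ciliated cell markers of the efferent duct summed to 101 and 99.5 CPM in control segment 1, 203 and 176 in ligated segment 1 and 124 to 170 elsewhere; 6 of 7 were higher after ligation in segment 1 and 0 lower (median log2 fold change 1.21), with Foxj1 at 7.66 and 5.07 CPM in control segment 1, 12.9 and 16.5 in ligated segment 1 and 0.812 to 2.36 elsewhere. The remaining lists summed to 183 to 432 CPM (basal cells), 76.7 to 194 (macrophages), 2.65 to 12.8 (testis somatic cells), 1.87 to 15.4 (blood), 1.31 to 3.99 (T and B cells) and 0 to 0.448 (adipocytes), and no marker of any list was at 0 in all 12 libraries. Every comparison with control segment 1 below is made between libraries that also differ in several of these sums. The part of these sums in the Hox results was not tested. In such bulk samples fewer cells of a type and less RNA per cell cannot be told apart.

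Hox expression in these segments came mostly from the middle of the Hoxb cluster. Per kb of exon, so that genes can be compared, Hoxb6 had the highest level over the 12 libraries with 122 CPM per kb, followed by Hoxb7 with 95.7, Hoxb8 with 93.5, Hoxd8 with 69.3, Hoxb9 with 35.7 and Hoxd9 with 33.5. The next were the paralogues Hoxb4 and Hoxd4 with 19.3 and 15.5, then Hoxb3 with 14.7 and Hoxb2 with 13.9. Hoxb genes made up 69.8% to 81.3% of the summed Hox level per kb in each library, Hoxd genes 16.8% to 26.2%, Hoxa genes 1.15% to 4.46% and Hoxc genes 0.407% to 2.04%. The order at the top changed along the duct. In control segment 1 Hoxb7 (191 ± 15.3 CPM per kb, SD, n = 2) and Hoxb6 (188 ± 2.71) differed by less than the SD of Hoxb7. In control segment 3 Hoxb6 (99.2 ± 9.40) and Hoxb8 (82.3 ± 3.23) stood above Hoxb7 (68.3 ± 7.21) and Hoxd8 (67.5 ± 2.35).

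**Figure D1:**
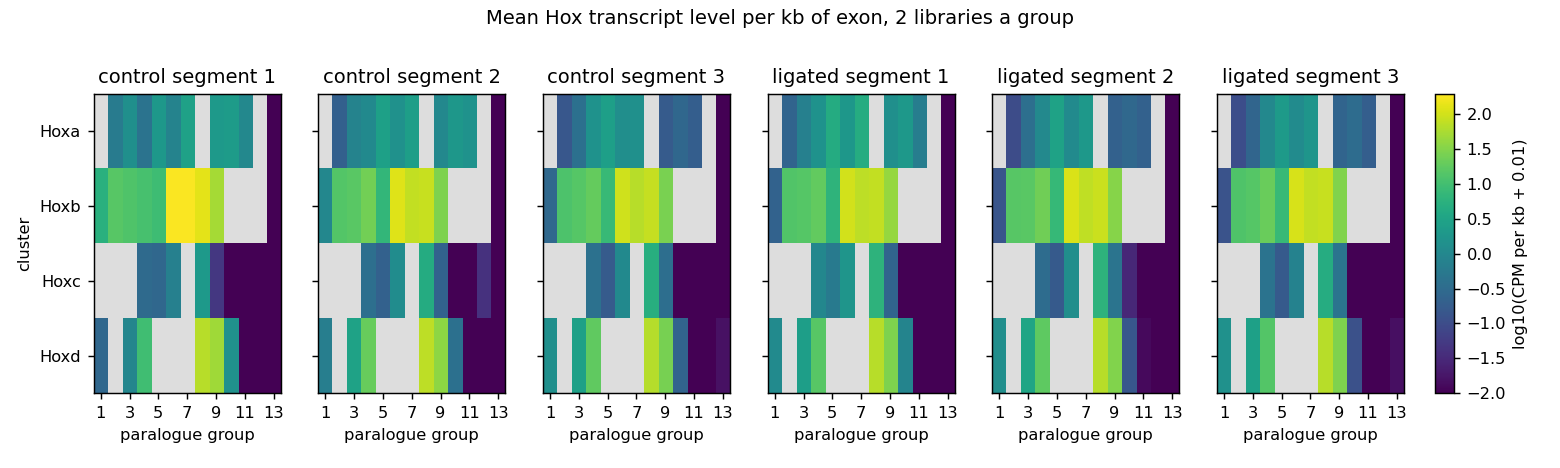
Heat maps of the mean level of each Hox gene, as log10 of CPM per kb of exon plus 0.01, by cluster (rows) and paralogue group (columns) in the 6 groups of 2 libraries; grey cells are genes that do not exist or are not reported here. The bright block is Hoxb6 to Hoxb8 with Hoxd8, the right-hand end is dark in every group, and Hoxb1 is brightest in control segment 1.

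The tail end of every cluster was close to silent. Hoxa13, Hoxb13, Hoxc11, Hoxc13 and Hoxd12 had 0 counts in all 12 libraries, which per library allows up to 3 counts or 0.0700 to 0.103 CPM. Hoxc10 had 3 counts in all, Hoxc12 and Hoxd13 2 each and Hoxd11 1. Hoxb13 and the group 13 genes are known from more distal parts of the male tract and the hindgut. These 9 members did not pass the filter on low counts; the other 30 were tested. Of the tested ones, those at the head end shared more of the Hox level beyond control segment 1: paralogue groups 1 to 4 held 7.54% and 7.65% of the summed level per kb there and 13.2% to 16.7% in the other libraries. Groups 9 to 13 held 11.5% to 16.6% with no such step. Most of that share came from Hoxb9 and Hoxd9, with means of 6.54% and 6.11% over the libraries. It therefore does not show how the low members of these groups changed.

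Ligation changed Hox transcript levels in segment 1, in both directions. Hoxb1, the gene at the head end of its cluster, fell by 4.67 on the log2 scale, and a run of 5 neighbouring genes in the same cluster, Hoxb5 to Hoxb9, fell by smaller amounts. All 5 tested Hoxc genes rose, as did Hoxd1, Hoxd3, Hoxd4, Hoxb4, Hoxa4, Hoxa5, Hoxa6 and Hoxa7. Of the 30 members tested, 21 passed an adjusted p of 0.05 in edgeR's quasi-likelihood test, 13 higher and 8 lower, against 48.7% of the 19213 genes tested (24.4% higher and 24.4% lower). All 21 had the same direction in both batches, but the calls were made from these same batches, so this is no separate check. By cluster, 4 rose and 1 fell of 10 in Hoxa, 1 rose and 6 fell of 9 in Hoxb, 5 rose of 5 in Hoxc, and 3 rose and 1 fell of 6 in Hoxd. The members' median log2 fold change was 0.06, beside 0.03 over all genes.

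Among the genes that fell, Hoxb1 stood first. It patterns the hindbrain in the embryo, and it lies on the plus strand at 96365752 to 96368256 of chromosome 11. Hoxb1 had 15.4 and 9.89, 3.20 and 1.29, and 0.880 and 0.369 CPM in control segments 1, 2 and 3, and 0.677 and 0.336, 0.311 and 0.268, and 0.288 and 0.253 CPM after ligation. Control segment 1 was thus the high group, control segment 2 intermediate, and all 3 ligated segments were below 0.7 CPM. The fall in segment 1 was 25.4-fold (log2 fold change -4.67 ± 0.31, adjusted p = 1.2e-05). Ligated segment 1 did not overlap with either control library of segments 1 and 2, and it overlapped with control segment 3.

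Hoxb5 to Hoxb9 cover 96271457 to 96306121 of chromosome 11, just upstream of Hoxb4, and their products pattern the trunk. Hoxb7 had 312 and 279, 125 and 125, and 97.5 and 113 CPM in control segments 1, 2 and 3, and 116 and 114, 125 and 117, and 131 and 118 CPM after ligation. The control libraries of segment 1 lay far above all 10 others, which spanned 97.5 to 131 CPM, and the fold change in segment 1 was -1.36 ± 0.10, adjusted p = 1.6e-05. Hoxb6 had 373 and 366, 251 and 237, and 182 and 208 CPM in control segments 1, 2 and 3, and 199 and 194, 211 and 228, and 218 and 219 CPM after ligation. Control segment 1 was again above all other libraries, with a change of -0.91 ± 0.09, adjusted p = 6.2e-05. Hoxb8 had 412 and 296, 237 and 215, and 223 and 211 CPM in control segments 1, 2 and 3, and 247 and 184, 250 and 218, and 246 and 219 CPM after ligation. The 2 control segment 1 libraries differed more here, but both exceeded all others (segment 1 change -0.72 ± 0.11, adjusted p = 0.00062). Hoxb5, the lowest of the run, had 29.2 and 22.1, 20.9 and 18.4, and 21.3 and 22.5 CPM in control segments 1, 2 and 3, and 19.6 and 14.9, 23.7 and 18.6, and 25.4 and 18.5 CPM after ligation, a change of -0.58 ± 0.13, adjusted p = 0.0049. Its groups overlapped across segments, though not within segment 1. Hoxb9 had 135 and 135, 85.2 and 68.5, and 68.0 and 72.3 CPM in control segments 1, 2 and 3, and 104 and 112, 87.6 and 79.6, and 79.5 and 77.0 CPM after ligation. Ligated segment 1 lay between control segment 1 and all other libraries, and the change was the smallest of the run (-0.32 ± 0.10, adjusted p = 0.025).

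Outside this run, Hoxd9 and Hoxa3 fell. Hoxd9, a paralogue of Hoxb9, had 111 and 98.1, 83.9 and 73.0, and 61.4 and 51.8 CPM in control segments 1, 2 and 3, and 66.0 and 61.4, 71.2 and 57.3, and 71.1 and 53.0 CPM after ligation. Both control libraries of segment 1 exceeded all others, and the change was -0.71 ± 0.09, adjusted p = 0.00017. Hoxa3, known for its role in the thymus and parathyroid, had 8.46 and 8.34, 6.54 and 3.48, and 3.07 and 1.45 CPM in control segments 1, 2 and 3, and 4.83 and 3.95, 2.46 and 1.97, and 1.65 and 1.31 CPM after ligation. Its level went down from segment 1 to segment 3 in both treatments, and the change in segment 1 was -0.96 ± 0.26, adjusted p = 0.012.

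**Figure D2:**
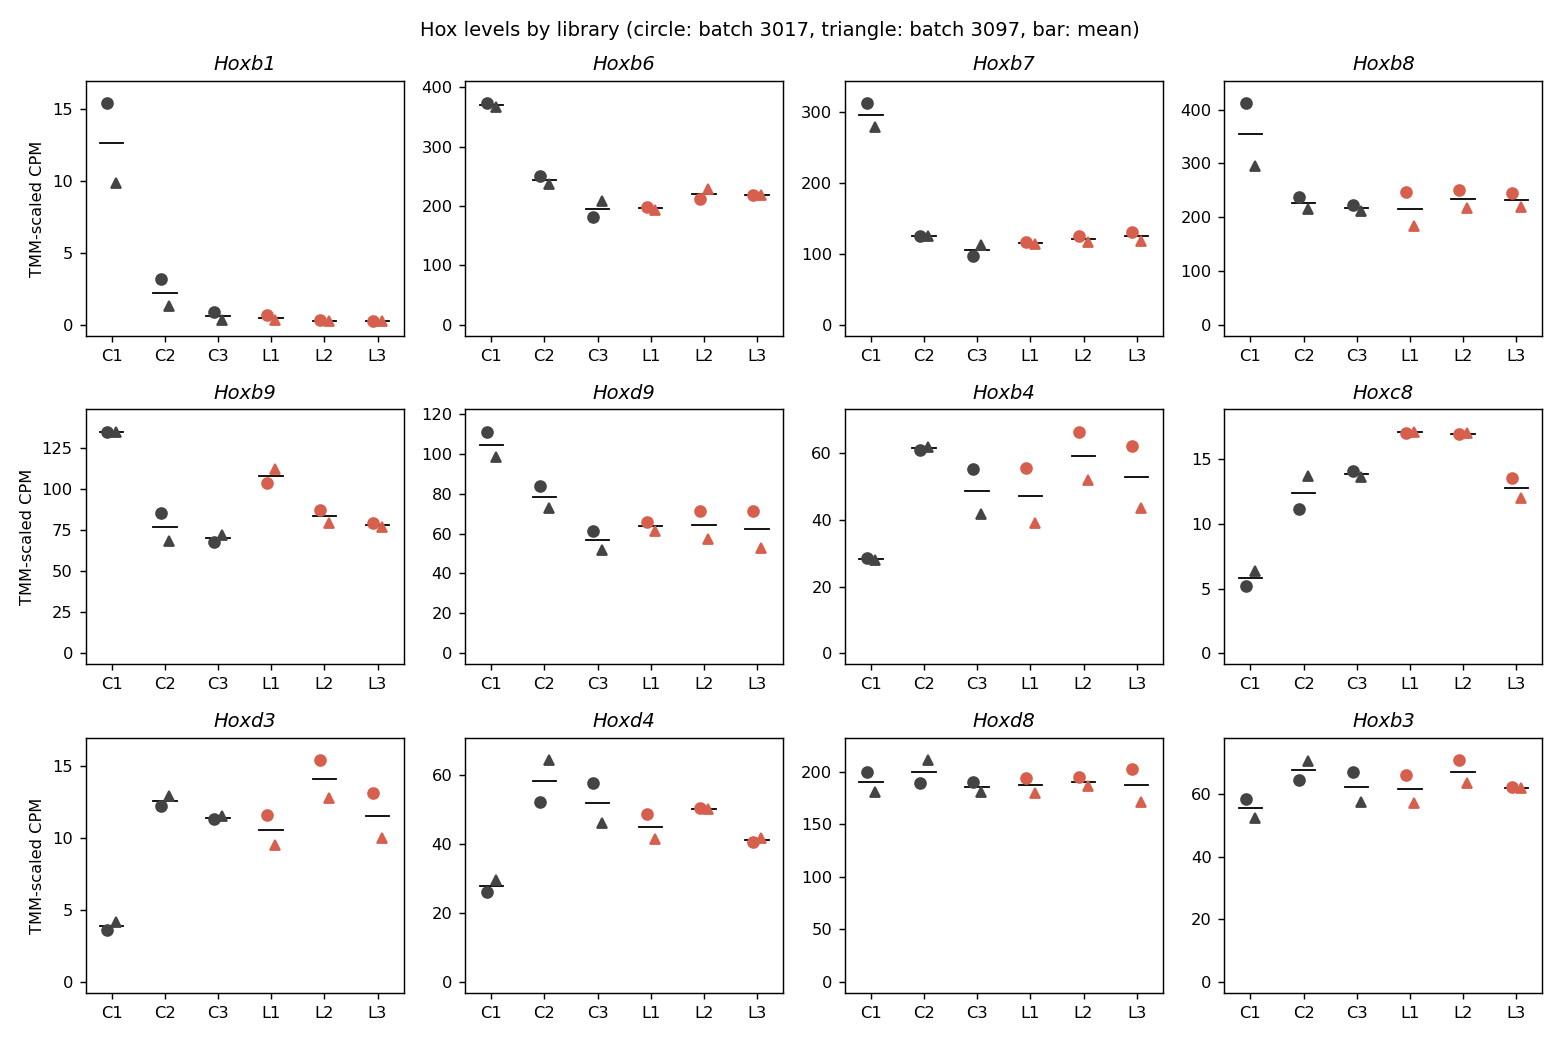
Levels in TMM-scaled CPM on linear axes for 12 members, with each point a library (circle batch 3017, triangle batch 3097, grey control, red ligated) and each bar the mean of 2. Hoxb1, Hoxb6, Hoxb7 and Hoxd9 are highest in both control segment 1 libraries, Hoxb4, Hoxc8, Hoxd3 and Hoxd4 are lowest there, and Hoxd8 and Hoxb3 differ less between groups.

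The genes that rose include pairs of the same paralogue group from different clusters, but called members of most groups went both ways. Hoxd1 and Hoxd3 rose while Hoxb1 and Hoxa3 fell. Hoxa5, Hoxa6 and Hoxa7 rose while Hoxb5, Hoxb6 and Hoxb7 fell, and Hoxc8 and Hoxc9 rose while Hoxb8, Hoxb9 and Hoxd9 fell. Hoxb4 and Hoxd4, which pattern the neck, were both lowest in control segment 1. Hoxb4 had 28.7 and 28.0, 61.0 and 61.8, and 55.3 and 41.8 CPM in control segments 1, 2 and 3, and 55.4 and 39.1, 66.4 and 51.8, and 62.0 and 43.6 CPM after ligation. Hoxd4 had 26.1 and 29.5, 52.3 and 64.3, and 57.8 and 46.0 CPM in control segments 1, 2 and 3, and 48.6 and 41.5, 50.3 and 50.1, and 40.6 and 41.8 CPM after ligation. For both, control segment 1 was the lowest group and did not overlap with any other, with changes of 0.71 ± 0.14, adjusted p = 0.0023 (Hoxb4) and 0.70 ± 0.14, adjusted p = 0.0029 (Hoxd4). The next gene, Hoxd3, had 3.58 and 4.17, 12.2 and 12.9, and 11.3 and 11.5 CPM in control segments 1, 2 and 3, and 11.6 and 9.52, 15.4 and 12.8, and 13.1 and 9.99 CPM after ligation. It rose by 1.44 ± 0.17, adjusted p = 0.00014. Hoxd3 and Hoxd4 cannot be fully separated, since 62.3% and 52.3% of their exon bases lie on the same strand as exons of each other or of Gm28230. Hoxd1, at the head end of Hoxd, had 0.401 and 0.566, 0.654 and 1.87, and 2.56 and 2.47 CPM in control segments 1, 2 and 3, and 2.05 and 2.16, 1.97 and 2.99, and 2.23 and 3.34 CPM after ligation. Control segment 2 was split between its libraries, and the change in segment 1 was 2.15 ± 0.38, adjusted p = 0.0013.

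Hoxa4 completed the group 4 genes of Hoxa, Hoxb and Hoxd. It had 0.801 and 0.536, 1.48 and 2.06, and 2.58 and 2.34 CPM in control segments 1, 2 and 3, and 2.71 and 2.18, 1.24 and 2.05, and 1.76 and 1.42 CPM after ligation, a change of 1.86 ± 0.35, adjusted p = 0.0019 in segment 1. Hoxa5, needed for lung development, had 3.53 and 3.66, 5.06 and 5.38, and 6.53 and 3.63 CPM in control segments 1, 2 and 3, and 7.21 and 9.40, 5.29 and 5.79, and 3.67 and 4.53 CPM after ligation, a change of 1.20 ± 0.27, adjusted p = 0.0049. Hoxa7 had 7.76 and 8.76, 8.26 and 6.66, and 4.35 and 3.74 CPM in control segments 1, 2 and 3, and 11.5 and 15.4, 5.16 and 6.21, and 3.61 and 6.27 CPM after ligation. Here ligated segment 1 was above every other library, and the change was 0.69 ± 0.24, adjusted p = 0.036. Hoxa6 had 0.576 and 0.894, 1.31 and 1.26, and 1.39 and 0.948 CPM in control segments 1, 2 and 3, and 1.17 and 2.07, 0.985 and 0.998, and 0.812 and 1.29 CPM after ligation, a change of 1.13 ± 0.38, adjusted p = 0.032.

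The Hoxc genes were low but moved one way. Hoxc8, the highest of them and a gene of the trunk, had 5.23 and 6.38, 11.1 and 13.7, and 14.1 and 13.6 CPM in control segments 1, 2 and 3, and 17.0 and 17.1, 16.9 and 17.0, and 13.5 and 12 CPM after ligation. Control segment 1 was the lowest group, ligated segments 1 and 2 were the highest, and the change in segment 1 was 1.56 ± 0.14, adjusted p = 3.9e-05. Hoxc6 had 1.88 and 1.70, 3.06 and 2.90, and 2.93 and 2.37 CPM in control segments 1, 2 and 3, and 3.97 and 4.39, 3.19 and 3.19, and 1.68 and 2.12 CPM after ligation, a change of 1.22 ± 0.22, adjusted p = 0.0015. Hoxc4 had 0.851 and 0.685, 0.895 and 0.934, and 1.14 and 0.869 CPM in control segments 1, 2 and 3, and 2.36 and 2.60, 0.829 and 0.852, and 1.28 and 0.885 CPM after ligation. Hoxc5 had 0.926 and 0.685, 0.860 and 0.419, and 0.483 and 0.500 CPM in control segments 1, 2 and 3, and 1.42 and 1.99, 0.441 and 0.536, and 0.524 and 0.430 CPM after ligation. For Hoxc4 and Hoxc5 the high group was ligated segment 1 alone, above all 10 other libraries, with changes of 1.69 ± 0.28, adjusted p = 0.001 (Hoxc4) and 1.08 ± 0.37, adjusted p = 0.037 (Hoxc5). Hoxc9 had 0.100 and 0.0894, 0.482 and 0.547, and 0.795 and 0.869 CPM in control segments 1, 2 and 3, and 0.700 and 0.448, 1.19 and 0.950, and 1.23 and 0.910 CPM after ligation. Its control segment 1 libraries held 4 and 3 counts, so the change of 2.56 ± 0.45, adjusted p = 0.0013 rests on few reads.

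The other 9 tested members did not pass in segment 1. Hoxd8, the most abundant Hoxd gene, had 200 and 181, 189 and 211, and 190 and 181 CPM in control segments 1, 2 and 3, and 194 and 180, 195 and 186, and 203 and 171 CPM after ligation. Its groups overlapped throughout, with a change of -0.03 ± 0.10, adjusted p = 0.82 in segment 1. Hoxb3 had 58.4 and 52.4, 64.6 and 70.6, and 66.9 and 57.4 CPM in control segments 1, 2 and 3, and 66.2 and 57.1, 70.8 and 63.4, and 62.2 and 61.9 CPM after ligation, and Hoxb2, a hindbrain gene, had 58.1 and 46.9, 48.7 and 48.4, and 46.1 and 41.7 CPM in control segments 1, 2 and 3, and 50.3 and 44.7, 54.9 and 49.6, and 51.7 and 41.2 CPM after ligation. Their changes in segment 1 were 0.15 ± 0.10, adjusted p = 0.21 (Hoxb3) and -0.14 ± 0.09, adjusted p = 0.22 (Hoxb2). Hoxb3 and Hoxb2 share 52.9% and 27.3% of their exon bases with Hoxb3os on the opposite strand, and the sources used here do not give the strand setting of the counting. Hoxa2, which patterns the pharyngeal arches, had 0.976 and 1.13, 0.585 and 0.129, and 0.227 and 0.263 CPM in control segments 1, 2 and 3, and 0.583 and 0.252, 0.130 and 0.195, and 0.157 and 0.177 CPM after ligation, a change of -1.36 ± 0.56, adjusted p = 0.069.

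Of the 21 calls in segment 1, 16 held under each of 18 alternative fits. Hoxa3, Hoxa6, Hoxa7, Hoxb9 and Hoxc5 were all lost without control segment 1 of batch 3097 (adjusted p 0.071 to 0.19), Hoxa6, Hoxa7, Hoxb9 and Hoxc5 without that of batch 3017 (0.072 to 0.18), Hoxa3, Hoxa7 and Hoxb9 without ligated segment 1 of batch 3017 (0.066 to 0.19), and Hoxa6, Hoxa7 and Hoxc5 without that of batch 3097 (0.19 to 0.25). Hoxc5 was then at 0.70 on the log2 scale. Hoxa7 also fell short without ligated segment 2 of batch 3097 (0.054) and without the batch block (0.052), Hoxa3 without the block (0.060), Hoxa6 and Hoxc5 in DESeq2 (0.060 and 0.10), and Hoxc5 without either ligated segment 3 library (0.051 and 0.050). Under library totals alone, all genes had a median 0.20 higher (log2), and calls over all genes went from 4684 higher and 4679 lower to 6505 and 3130. The members then split 14 to 7, Hoxb5 was at -0.38, and Hoxb9 was not called (-0.12, adjusted p = 0.35).

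**Figure D3:**
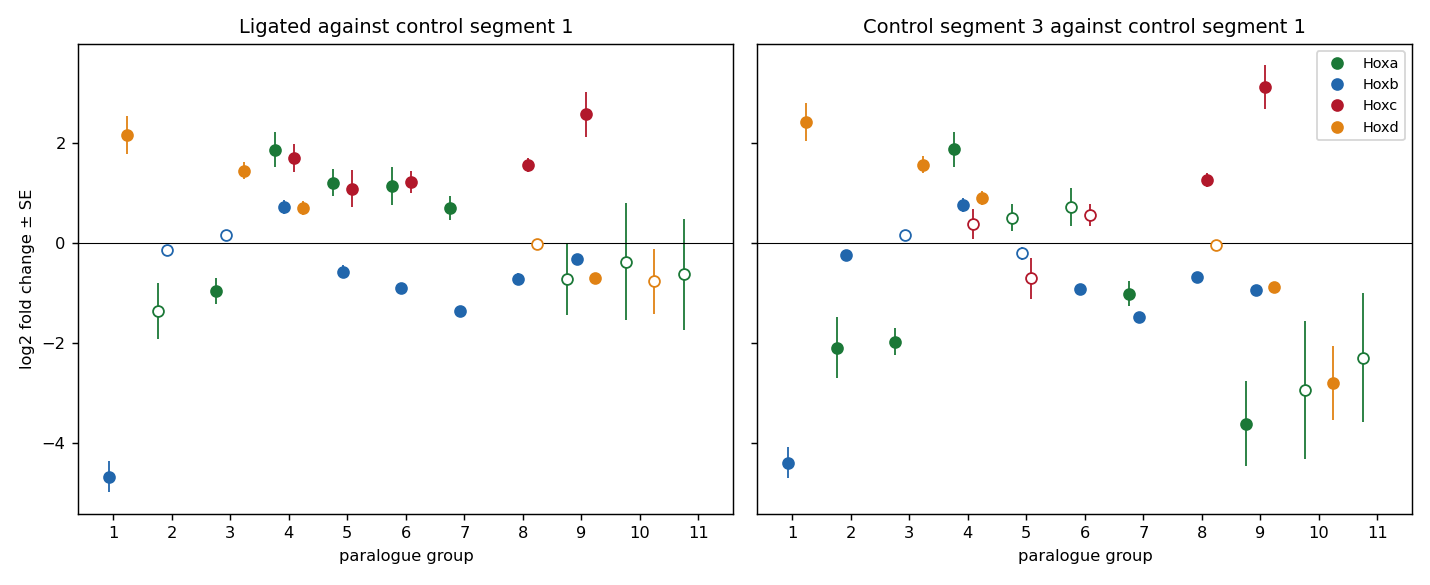
Log2 fold changes with their SE for the tested Hox genes reported here, by paralogue group, coloured by cluster, for ligated against control segment 1 (left) and control segment 3 against control segment 1 (right); filled points passed an adjusted p of 0.05. In both panels Hoxb1 is lowest among the filled points and Hoxb5 to Hoxb9 lie below 0 while the Hoxd genes of groups 1, 3 and 4 lie above it; both panels share the control segment 1 libraries.

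Genes toward the tail end of Hoxa, with Hoxd10, varied widely between libraries. Hoxa10 and Hoxa11 are known regulators of the reproductive tract. Hoxa9 had 9.74 and 13.2, 6.68 and 4.64, and 1.25 and 0.527 CPM in control segments 1, 2 and 3, and 3.83 and 11.2, 0.752 and 1.56, and 0.341 and 2.23 CPM after ligation. Hoxa10 had 6.33 and 8.76, 6.23 and 5.99, and 1.62 and 0.132 CPM in control segments 1, 2 and 3, and 3.22 and 9.35, 0.518 and 1.27, and 0.0262 and 2.07 CPM after ligation. Both were high in control segments 1 and 2 and low in control segment 3, and in ligated segment 1 the library of batch 3097 was about 3-fold above that of batch 3017. Hoxd10 had 3.13 and 2.32, 1.03 and 0.322, and 0.653 and 0.158 CPM in control segments 1, 2 and 3, and 1.07 and 2.02, 0.104 and 0.390, and 0.262 and 0.126 CPM after ligation. It too was highest in control segment 1 and split between batches in ligated segment 1. Hoxa11 ranged from 0 to 4.03 CPM. The changes in segment 1 were -0.72 ± 0.72, adjusted p = 0.45 (Hoxa9), -0.38 ± 1.17, adjusted p = 0.82 (Hoxa10), -0.63 ± 1.11, adjusted p = 0.67 (Hoxa11) and -0.77 ± 0.65, adjusted p = 0.36 (Hoxd10). With SE this wide, changes of that size in either direction were not detectable.

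**Figure D4:**
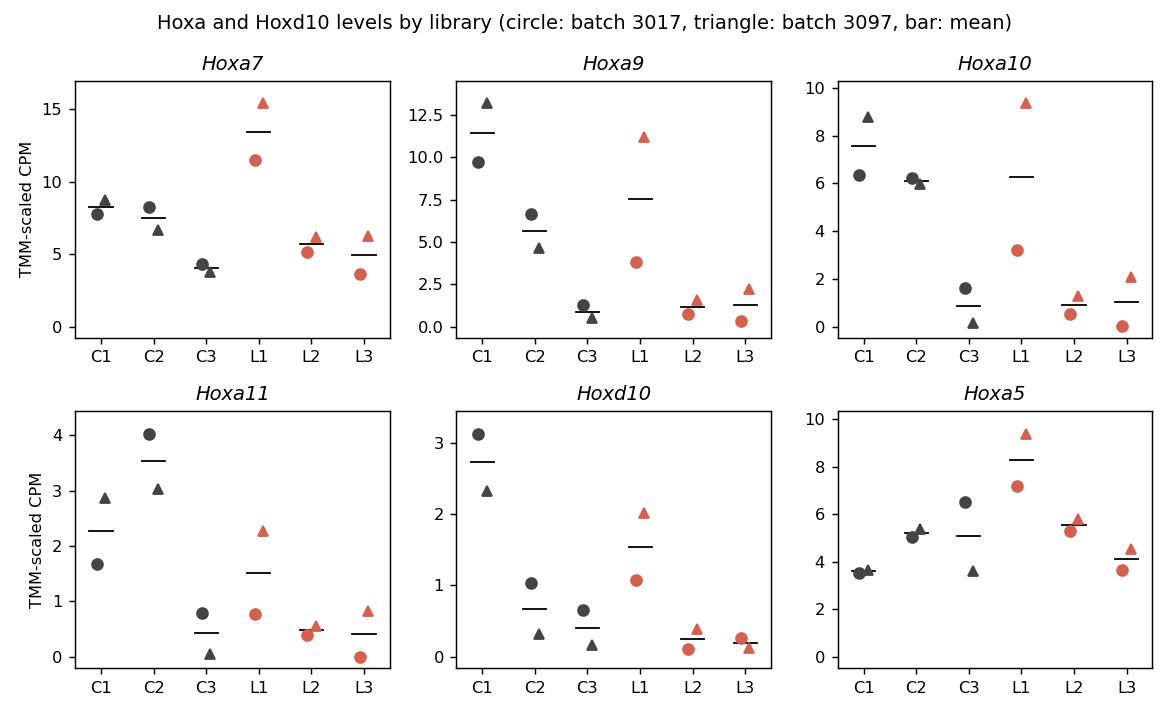
Levels in TMM-scaled CPM on linear axes for 5 Hoxa genes and Hoxd10, with each point a library (circle batch 3017, triangle batch 3097, grey control, red ligated) and each bar the mean of 2. Hoxa9 and Hoxa10 reach 11.2 and 9.35 CPM in the ligated segment 1 library of batch 3097 and 3.83 and 3.22 CPM in that of batch 3017, the widest gaps between libraries of a group among the panels.

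In segments 2 and 3 ligation left most Hox transcripts without a detected change. In segment 2, 2 of 30 members passed, both lower, against 9.86% of all genes (2.87% higher and 7.00% lower). Hoxb1 fell from 2.24 ± 1.35 to 0.289 ± 0.0306 CPM (SD, n = 2; -2.85 ± 0.34, adjusted p = 0.0021), and Hoxa3 from 5.01 ± 2.17 to 2.22 ± 0.347 CPM (-1.13 ± 0.27, adjusted p = 0.03). Hoxa3 lost its call without control segment 2 of batch 3017 (adjusted p = 0.22) or either ligated segment 2 library (0.24 and 0.13), and without the batch block (0.095), and Hoxb1 without ligated segment 2 of batch 3017 (0.052). With only the groups compared in the fit neither passed (0.16 and 0.082). Of all 30 members, 7 had an unadjusted p from edgeR under 0.05 in segment 2. The 7 tested members of paralogue groups 9 to 13 had a median log2 fold change of -1.34 there, beside 0 over all genes, and 0 were called. Hoxa9, Hoxa10 and Hoxa11 had means of 5.66, 6.11 and 3.53 CPM in control and 1.15, 0.892 and 0.474 CPM in ligated segment 2. Means of Hoxd9 and Hoxd10 were lower too, and those of Hoxb9 and Hoxc9 were higher. In segment 3, 0 of 30 passed in edgeR or DESeq2, against 1.72% of all genes (0.312% higher and 1.41% lower), and 3 had an unadjusted p under 0.05. These were Hoxb1 (-1.13 ± 0.37, adjusted p = 0.19), Hoxb7 (0.24 ± 0.10, adjusted p = 0.27) and Hoxd4 (-0.33 ± 0.14, adjusted p = 0.29).

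The size of the ligation effect differed between segments for many members. The difference itself passed for 13 of 30 between segments 1 and 2, 7 higher and 6 lower in segment 1, against 18.5% of all genes (10.3% and 8.20%). It passed for 17 of 30 between segments 1 and 3, 10 higher and 7 lower, against 30.7% (16.1% and 14.7%). Between segments 2 and 3 it passed for 0 of 30 and for 0% of all genes, with 0 members also in DESeq2 and 4 at an unadjusted p under 0.05. Hoxb7 fell by 1.32 more in segment 1 than in segment 2 on the log2 scale (-1.32 ± 0.14, adjusted p = 0.00083) and Hoxc8 rose by 1.11 more (1.11 ± 0.19, adjusted p = 0.0051). These comparisons all rest on the same control and ligated segment 1 libraries.

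Along the control duct the step between segments 1 and 2 had more calls than that between segments 2 and 3. Of 30 members 19 passed between control segments 1 and 2, with 9 higher and 10 lower in segment 2, against 43.2% of all genes (22.1% higher and 21.1% lower). Hoxd3 (1.69 ± 0.17, adjusted p = 1e-04), Hoxb4 (1.12 ± 0.14, adjusted p = 0.00029), Hoxc8 (1.10 ± 0.14, adjusted p = 0.00032) and Hoxd4 (1.07 ± 0.14, adjusted p = 0.00041) were higher in segment 2. Hoxb1 (-2.57 ± 0.27, adjusted p = 0.00014), Hoxb7 (-1.24 ± 0.10, adjusted p = 4e-05), Hoxb9 (-0.82 ± 0.10, adjusted p = 3e-04) and Hoxb6 (-0.60 ± 0.09, adjusted p = 0.00074) were lower. The other 5 higher were Hoxa4, Hoxb3, Hoxc6, Hoxc9 and Hoxd1, and the other 6 lower were Hoxa2, Hoxa3, Hoxb5, Hoxb8, Hoxd9 and Hoxd10. Hoxa2, Hoxa3, Hoxa4, Hoxb3, Hoxb5, Hoxc6, Hoxd1 and Hoxd10 lost their calls without control segment 1 of batch 3097 (adjusted p 0.084 to 0.24) and without control segment 2 of batch 3097 (0.057 to 0.35), 6 of these 8 without control segment 1 of batch 3017 (0.082 to 0.22), and Hoxb5 and Hoxc6 without control segment 2 of batch 3017 (0.13 and 0.084). Hoxa2 kept its call in 1 of 18 alternatives, and was lost among others in DESeq2 (0.097), under library totals (0.051) and with either other count filter (0.052 and 0.053). DESeq2 also lost Hoxb3 (0.058), library totals Hoxb5 (0.055) and the fit with no filter Hoxd10 (0.077). Hoxa2, Hoxb3, Hoxb5 and Hoxd10 each fell short without some library of another group (0.052 to 0.072), and 12 calls were left with only the groups compared in the fit. Hoxa2 was at -2.98 and -0.89 on the log2 scale without the control segment 2 library of batch 3017 and 3097, and Hoxd1 at 0.60 without the latter. Without the batch block Hoxa2, Hoxa3, Hoxb3, Hoxb5, Hoxd9 and Hoxd10 were not called (0.054 to 0.17).

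Between control segments 2 and 3 fewer members were called. There 2 of 30 passed, against 1.79% of all genes (0.874% higher and 0.911% lower), and both were lower in segment 3: Hoxb1 (-1.82 ± 0.31, adjusted p = 0.031) and Hoxd9 (-0.47 ± 0.09, adjusted p = 0.037). Both lost the call without either library of control segments 1 and 3 or ligated segment 2 and without control segment 2 of batch 3017, and Hoxd9 also without ligated segment 1 of batch 3017 (adjusted p 0.050 to 0.20), as they did without the batch block (0.14 and 0.20) and with only the groups compared (0.10 and 0.12). DESeq2 called 6 members. In edgeR 9 of 30 had an unadjusted p under 0.05, and paralogue groups 9 to 13 had a median log2 fold change of -0.74 (0 over all genes). Hoxa9, Hoxa10 and Hoxa11 had means of 5.66, 6.11 and 3.53 CPM in control segment 2 and 0.888, 0.875 and 0.424 CPM in control segment 3. None of these was called, and of the tested members of groups 9 to 13 only Hoxc9 had a higher mean in segment 3. The control libraries of segment 2 differed more from each other than those of any other group (chi-square per degree of freedom 116, against 22.6 to 80.1), and that of batch 3017 had more Hoxb1, Hoxa3 and Actg2 than its partner.

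Over the whole stretch from control segment 1 to control segment 3, 19 of 30 passed, 7 higher and 12 lower, against 51.2% of all genes (26.2% higher and 25.0% lower). Hoxb1 was 21.0-fold lower in segment 3 (-4.39 ± 0.31, adjusted p = 1.2e-05). Hoxb7 (-1.48 ± 0.10, adjusted p = 1.1e-05), Hoxb6 (-0.92 ± 0.09, adjusted p = 4.8e-05), Hoxd9 (-0.89 ± 0.09, adjusted p = 4.8e-05), Hoxb9 (-0.94 ± 0.10, adjusted p = 8.6e-05) and Hoxa3 (-1.97 ± 0.27, adjusted p = 0.00031) were lower too. Members of paralogue groups 9 to 13 were called lower in 4 of 7 cases, Hoxa9 (-3.61 ± 0.85, adjusted p = 0.012), Hoxb9, Hoxd9 and Hoxd10 (-2.79 ± 0.74, adjusted p = 0.013), and higher in 1, Hoxc9 (3.10 ± 0.44, adjusted p = 0.00035). Hoxd1 (2.41 ± 0.38, adjusted p = 0.00065), Hoxd3 (1.56 ± 0.17, adjusted p = 8.5e-05) and Hoxc8 (1.25 ± 0.14, adjusted p = 9.6e-05) were higher. Without control segment 3 of batch 3097 the calls of Hoxa2, Hoxa7, Hoxa9, Hoxb2 and Hoxd10 were lost (adjusted p 0.050 to 0.085), without control segment 1 of batch 3017 those of Hoxa9, Hoxb2 and Hoxd10 (0.057 to 0.25), and without control segment 1 of batch 3097 or control segment 3 of batch 3017 those of Hoxa2 and Hoxb2 (0.054 to 0.16). Hoxb2 was also lost without either ligated segment 1 library or ligated segment 2 of batch 3017 (0.054 to 0.063), without the batch block (0.16) or under library totals (0.14, with the members then 8 higher and 11 lower). These values and those of ligated segment 1 share the control segment 1 libraries: side by side, Hoxb7 stood at -1.36 ± 0.10 in ligated segment 1 and -1.48 ± 0.10 in control segment 3, and Hoxd3 at 1.44 ± 0.17 and 1.56 ± 0.17.

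Ligated segment 1 can be set beside control segments 2 and 3 directly. These comparisons were added after the data had been seen. Against control segment 2, 6 of 30 members passed, 3 higher and 3 lower, and 13.2% of all genes (5.74% higher and 7.48% lower). Hoxb9 (0.49 ± 0.10, adjusted p = 0.015), Hoxc4 (1.44 ± 0.28, adjusted p = 0.012) and Hoxc5 (1.43 ± 0.39, adjusted p = 0.042) were higher in ligated segment 1, and Hoxb1 (-2.10 ± 0.31, adjusted p = 0.0041), Hoxb6 (-0.31 ± 0.09, adjusted p = 0.049) and Hoxd9 (-0.30 ± 0.09, adjusted p just under the threshold) were lower. Against control segment 3, 5 of 30 passed, all higher, and 9.40% of all genes (4.62% higher and 4.78% lower): Hoxa7 (1.71 ± 0.25, adjusted p = 0.0044), Hoxb9 (0.62 ± 0.10, adjusted p = 0.0073), Hoxc4 (1.31 ± 0.28, adjusted p = 0.02), Hoxc5 (1.79 ± 0.39, adjusted p = 0.024) and Hoxa3 (1.01 ± 0.27, adjusted p = 0.046). Beside these calls, markers higher in ligated segment 1 than in control segment 3 were 4 of 5 (macrophage), 3 of 7 (ciliated), 3 of 4 (basal), 2 of 6 (fibroblast) and 2 of 5 (endothelial). Against control segment 2 they were 3 of 5, 2 of 7, 3 of 4, 5 of 6 and 2 of 5, with 0 lower in any of these lists. Germ cell and sperm markers were lower in 6 of 6 against either control segment. Smooth muscle markers were 2 higher and 1 lower against control segment 2. The part of these markers was not tested. For Hoxb7 the log2 difference of ligated segment 1 was -0.12 ± 0.10 from control segment 2 and 0.12 ± 0.10 from control segment 3, beside -1.36 ± 0.10 from control segment 1. Without ligated segment 1 of batch 3097 the calls fell to 1 in each comparison, Hoxb1 against control segment 2 and Hoxa7 against control segment 3, and without control segment 3 of batch 3017 Hoxa7 alone passed against control segment 3. Against control segment 2, Hoxb6, Hoxc5 and Hoxd9 each fell short without a library of several other groups (0.051 to 0.31), and with only the groups compared none of the 6 passed (0.059 to 0.36). Library totals alone raised the median over all genes by 0.16 and 0.13. Against control segment 2 they split the members 5 higher to 1 lower and ended the calls of Hoxb6 (adjusted p = 0.24) and Hoxd9 (0.33). Against control segment 3, Hoxa3 lost its call in 12 of 18 alternatives.

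Among the ligated segments, between ligated segments 1 and 2, 2 of 30 passed against 1.30% of all genes (0.0885% higher and 1.21% lower), Hoxa7 (-1.23 ± 0.24, adjusted p = 0.045) and Hoxc4 (-1.56 ± 0.28, adjusted p = 0.036), both lower in segment 2. With only the groups compared in the fit 10 passed, among them these 2. Between ligated segments 2 and 3, 0 of 30 passed in edgeR or DESeq2 and 0% of all genes, with 2 members at an unadjusted p under 0.05, Hoxc6 (-0.74 ± 0.22, adjusted p = 0.56) and Hoxc8 (-0.41 ± 0.13, adjusted p = 0.59). Between ligated segments 1 and 3, 6 of 30 passed against 5.80% of all genes (1.72% higher and 4.08% lower), all lower in segment 3. They were Hoxa7 (-1.45 ± 0.24, adjusted p = 0.014), Hoxa3 (-1.57 ± 0.28, adjusted p = 0.016), Hoxc6 (-1.13 ± 0.22, adjusted p = 0.021), Hoxc5 (-1.84 ± 0.39, adjusted p = 0.029), Hoxb9 (-0.46 ± 0.10, adjusted p = 0.032) and Hoxc4 (-1.20 ± 0.27, adjusted p = 0.036). Without ligated segment 1 of batch 3097 or ligated segment 3 of batch 3017 all 6 were lost (adjusted p 0.14 to 0.24), without ligated segment 3 of batch 3097 Hoxa7 alone was called, and without ligated segment 1 of batch 3017 Hoxb9, Hoxc4 and Hoxc6 were lost (0.055 to 0.079); without the batch block Hoxa3, Hoxb9 and Hoxc4 were (0.056 to 0.059). Hoxa7 and Hoxc4 between segments 1 and 2 were both lost without either library of ligated segments 1 and 2. They were also both lost without either library of control segments 1 and 3, and without the block (0.075 and 0.056). Hoxa7 lost its call in 10 of 18 alternatives and Hoxc4 in 11 of 18. Markers of other cell types were lower beside these calls: between segments 1 and 3 in 5 of 7 (ciliated), 4 of 6 (fibroblast), 4 of 5 (macrophage), 3 of 5 (endothelial) and 2 of 4 (basal), and between segments 1 and 2 in 3 of 7, 3 of 6, 2 of 5, 1 of 5 and 1 of 4 in that order. None of these 5 lists had a member higher, and their part in the Hox results was not tested.

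Of 9 tested TALE homeodomain genes, whose products bind DNA with Hox proteins, 2 were higher after ligation in segment 1 and 2 lower, against 48.7% of all genes called. Pbx3 had 33.8 ± 5.32 CPM in control and 10.8 ± 1.10 CPM in ligated segment 1 (SD, n = 2), and 4.30 to 7.61 CPM in the other 8 libraries. It fell (-1.65 ± 0.22, adjusted p = 3e-04), and Meis1 rose (1.40 ± 0.29, adjusted p = 0.0031). Between control segments 1 and 3, 2 of 9 were higher, among them Meis1 (1.26 ± 0.29, adjusted p = 0.0053), and 1 was lower, Pbx3 (-2.82 ± 0.23, adjusted p = 2.6e-05). Ligation in segment 2 raised 1 of 9, and in segment 3 0 of 9 passed.

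Polycomb proteins hold Hox clusters silent and trithorax proteins keep them active. Of 31 such genes 2 were higher and 10 lower in segment 1 after ligation, against 24.4% of all genes each way, with a median log2 fold change of -0.12 (0.03 over all genes). The smallest adjusted p belonged to Phc3 (-0.59 ± 0.10, adjusted p = 0.0014), Ezh1 (-0.41 ± 0.07, adjusted p = 0.0015) and Phc1 (-0.90 ± 0.16, adjusted p = 0.0017), all polycomb genes. In control segment 3 against control segment 1, 1 was higher and 11 lower, among them the polycomb genes Ring1 (-0.69 ± 0.08, adjusted p = 0.00016) and Phf1 (-0.40 ± 0.08, adjusted p = 0.0024). Ligation in segments 2 and 3 gave 2 higher and 1 lower, and 1 higher. The smallest adjusted p were those of Rbbp7 (-0.77 ± 0.13, adjusted p = 0.0093) in segment 2 and Ring1 (0.57 ± 0.08, adjusted p = 0.0096) in segment 3.

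Retinoic acid induces Hox genes in the embryo. Of 15 pathway genes tested, 6 were higher and 2 lower in segment 1 after ligation, again against 24.4% of all genes each way, with a median of 0.65. Aldh1a1, an enzyme that makes retinoic acid, fell (-1.46 ± 0.12, adjusted p = 2.4e-05), and the receptors Rarg (1.27 ± 0.15, adjusted p = 0.00013) and Rara (0.85 ± 0.11, adjusted p = 2e-04) rose. Aldh1a1 also fell in segments 2 (-1.41 ± 0.12, adjusted p = 0.00035) and 3 (-0.75 ± 0.12, adjusted p = 0.012). In all, 2 were higher and 1 lower in segment 2, and 1 lower in segment 3. From control segment 1 to control segment 3, 5 were higher, among them the receptors Rara (1.25 ± 0.11, adjusted p = 2.7e-05) and Rxra (0.76 ± 0.12, adjusted p = 0.00063), and 4 lower.

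Transcription factors of the Wolffian duct were 5 higher and 2 lower of 11 in segment 1 after ligation, beside the same 48.7% of all genes (median 0.45), with the estrogen receptor Esr1 higher (1.49 ± 0.09, adjusted p = 8.2e-06) and Pax8 (-1.35 ± 0.14, adjusted p = 1e-04) lower. From control segment 1 to control segment 3, 5 were higher, among them Esr1 (1.36 ± 0.09, adjusted p = 1.1e-05) and Pax2 (1.34 ± 0.22, adjusted p = 0.0016), and 3 lower, led by Pax8 (-1.40 ± 0.14, adjusted p = 7.6e-05). Ligation gave 2 higher and 1 lower in segment 2 and 0 of 11 in segment 3. Of the Cdx and Gdf11 axis regulators 2 of 5 could be tested, and 0 passed in segment 1. In segment 2 Cdx2 was called higher (adjusted p = 0.049), but it had 0 and 0 CPM in control and 1.11 and 0 CPM in ligated libraries, so the call rests on 1 library and no fold is given.

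Of 22 tested genes that lie inside a cluster without being members, 4 were higher and 3 lower in segment 1 after ligation, and of 22 protein-coding genes nearest to the clusters 6 were higher and 6 lower, against 48.7% of all genes called. Inside Hoxd the noncoding gene Haglr, also called Mdgt, had 0.451 and 0.715, 1.31 and 4.89, and 5.94 and 5.53 CPM in control segments 1, 2 and 3, and 7.26 and 4.39, 8.09 and 7.60, and 9.90 and 7.26 CPM after ligation (change in segment 1 3.34 ± 0.63, adjusted p = 0.0039); it lies next to Hoxd1. Inside Hoxb the antisense gene Hoxb5os rose (0.91 ± 0.13, adjusted p = 0.00041), while the noncoding genes Gm53 (-0.58 ± 0.14, adjusted p = 0.0084) and Hoxb3os (-0.69 ± 0.16, adjusted p = 0.0058) fell. In Hoxa 5730596B20Rik fell (-2.47 ± 0.71, adjusted p = 0.021), and Gm28230, which shares exons with Hoxd3 and Hoxd4, rose (0.84 ± 0.18, adjusted p = 0.0042). Beside the clusters Evx1, a homeobox gene next to Hoxa13, fell (-2.74 ± 0.40, adjusted p = 0.00047), as did Calcoco1 beside Hoxc (-1.04 ± 0.08, adjusted p = 2.2e-05) and Skap1 beside Hoxb1 (-0.93 ± 0.14, adjusted p = 0.00056), and Snx10 beside Hoxa rose (1.49 ± 0.20, adjusted p = 0.00028). The others of the 6 higher and 6 lower beside the clusters are not named here, so the named ones do not show that balance. The strand setting of the counting is not known, so antisense and overlapping genes cannot be told apart.

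MicroRNA genes also sit in the clusters, and their mature sequences from RefSeq (GRCm38.p6) are given because the one beside Hoxb4 was called. Capitals mark the seed, bases 2 to 8; the loci are chr11:96317186-96317208 and chr11:96265187-96265208 on the plus strand.
mmu-miR-10a-5p: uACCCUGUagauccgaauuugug
mmu-miR-196a-5p: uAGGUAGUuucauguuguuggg
Reads over the Mir10a locus, upstream of Hoxb4, were at 0.776 and 0.715 CPM in control segment 1 and 1.31 and 1.23 CPM in ligated segment 1 (0.76 ± 0.26, adjusted p = 0.032). Reads over Mir196a-1, upstream of Hoxb9, were at 1.83 and 1.70 and 1.66 and 1.32 CPM (-0.25 ± 0.30, adjusted p = 0.51). miR-196 is known to cut Hoxb8 messenger RNA. Libraries selected for poly(A) count longer transcripts over these loci and not the mature microRNAs.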

How the data were processed

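Poly(A) RNA was sequenced from 12 libraries, 2 in each of 6 groups. The authors deposited whole-number read counts per gene without normalization, in a table per batch whose columns name the groups. Libraries are named by group and batch, because nothing ties a label's replicate number to a batch. Trim Galore 0.6.0, cutadapt, FastQC, STAR 2.7.0e and the build GRCm38 (mm10) are listed, per the submitters' processing notes. The sources used here do not say how reads were counted, or with which strand setting and annotation. Library totals were 30485275 to 42313728 counts. All 55536 identifiers matched GENCODE M21.

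Counts were tested with edgeR 4.0.16 in R 4.3.3: filterByExpr with a minimum count of 10 (19213 genes), TMM, glmQLFit with robust dispersion and two-sided glmQLFTest, with group and batch in the model over all 12 libraries (residual degrees of freedom 5, common biological coefficient of variation 0.153). Calls are Benjamini-Hochberg adjusted p under 0.05 over all genes tested, and SE is the absolute log2 fold change over the root of F. The design text states the batches, and same-batch deviations from group means correlated at 0.08 to 0.55 between groups, so batch is the block. Replicates of every group differed by more than sampling noise. Floors of 3 counts per library cover counting error only. The fit was also run on simulated counts with far fewer changed genes and no batch difference. That run does not check the scaling or the block in these data.

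Members given with every library were those called in a ligation or control segment contrast or reaching a group mean of 5 CPM. Of 5 pathway lists at most the 3 smallest adjusted p per ligation or control contrast are named. Of neighbouring genes with at least 1 CPM some are named. The members and lists, with 13 cell marker lists, were chosen with earlier results of these data known. Alternatives were library totals, no or a stricter count filter (30), no block, only the groups compared, DESeq2 1.42.0, and leaving out each library. No protein sequence was used here, and values of some single genes are not reported here.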

Additional observations from a re-analysis of the deposited data

Results flagged for a closer look

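The ligation effect, as the log2 fold change of ligated over control tissue, differed between segments by its own test for the members below; each value is the effect in segment 1 minus that in the other segment, and the reason was not tested. Each difference rests on 8 libraries, and the same segment 1 libraries enter both comparisons.

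Against segment 2, the effect was lower in segment 1 for Hoxb1 (-1.82 ± 0.47), Hoxb7 (-1.32 ± 0.14), Hoxb8 (-0.76 ± 0.16), Hoxb6 (-0.75 ± 0.13), Hoxb5 (-0.68 ± 0.18) and Hoxd9 (-0.42 ± 0.12). The effect was higher in segment 1 for Hoxa4 (1.96 ± 0.48), Hoxc4 (1.81 ± 0.41), Hoxd3 (1.28 ± 0.23), Hoxc6 (1.12 ± 0.31), Hoxc8 (1.11 ± 0.19), Hoxd4 (0.91 ± 0.20) and Hoxb4 (0.79 ± 0.19). Adjusted p from edgeR ran from 0.00083 (Hoxb7) to 0.04 (Hoxd9). Hoxb6, Hoxb7, Hoxc8 and Hoxd3, 4 of the 13, passed under all alternatives tried.

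Against segment 3 the effect was lower in segment 1 for Hoxb1 (-3.54 ± 0.50), Hoxb7 (-1.60 ± 0.14), Hoxb6 (-1.07 ± 0.13), Hoxd9 (-0.83 ± 0.12), Hoxb8 (-0.81 ± 0.16), Hoxb5 (-0.56 ± 0.18) and Hoxb9 (-0.48 ± 0.14). A lower effect in segment 1 need not mean a fall in the other segment. Hoxb7, for one, had a mean of 105 CPM in control and 125 CPM in ligated segment 3. The effect was higher for Hoxa4 (2.49 ± 0.48), Hoxc9 (2.21 ± 0.56), Hoxd1 (2.04 ± 0.50), Hoxc6 (1.70 ± 0.31), Hoxc8 (1.67 ± 0.19), Hoxc4 (1.58 ± 0.40), Hoxa5 (1.52 ± 0.38), Hoxd3 (1.43 ± 0.23), Hoxd4 (1.03 ± 0.20) and Hoxb4 (0.60 ± 0.19). Adjusted p ran from 0.00019 (Hoxb7) to 0.044 (Hoxb5), and 10 of the 17 passed under all alternatives tried.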

How the results depend on the processing

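No called member changed direction under any alternative tried. Leaving out each library in turn gave the following numbers of members called. They were 16 to 22 for ligated against control segment 1 (main value 21), 0 to 4 for segment 2 (2) and 0 for segment 3 (0). Along the control duct they were 11 to 19 for segments 1 and 2 (19), 0 to 6 for segments 2 and 3 (2) and 16 to 19 for segments 1 and 3 (19). Along the ligated duct they were 0 to 4 for segments 1 and 2 (2), 0 for segments 2 and 3 (0) and 0 to 8 for segments 1 and 3 (6). Differences in ligation effect gave 5 to 14 for segments 1 and 2 (13), 11 to 17 for segments 1 and 3 (17) and 0 for segments 2 and 3 (0). Ligated segment 1 gave 1 to 6 against control segment 2 (6) and 1 to 5 against control segment 3 (5).

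Without the replicate block by batch the count was 1 for ligated against control segment 2, 0 for control segments 2 and 3, 0 and 3 for ligated segments 1 and 2 and 1 and 3, 8 for the ligation effect in segments 1 and 2, and 3 for ligated segment 1 against control segment 2. With only the groups compared in the fit it was 0 for ligated against control segment 2, 12 for control segments 1 and 2, 1 for control segments 2 and 3, 10 for ligated segments 1 and 2, 2 for ligated segments 2 and 3, and 0 for ligated segment 1 against control segment 2. Library totals alone gave 4 for ligated against control segment 2, where the median of all genes shifted by 0.13, the stricter filter gave 1 for ligated segments 1 and 2, and DESeq2 gave 6 for control segments 2 and 3; the cause was not tested. All other counts stayed within 1.5 times the main value. With 2 libraries a group, small shifts of low members such as Hoxc9, Hoxa2 and Hoxd10 were not detectable.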

Other observations

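Between the batches 5 of the 30 tested members differed, beside 1798 of the 19213 genes tested. Hoxb1, Hoxb4, Hoxb5, Hoxb8 and Hoxd9 were lower in batch 3097 than in batch 3017, by log2 differences of -0.84, -0.30, -0.29, -0.25 and -0.24 (adjusted p from edgeR 0.026, 0.046, 0.044, 0.041 and 0.019). Each batch held 1 pool of every group, so an effect of sequencing batch cannot be told apart from a difference between pools.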
